A study of Mus musculus with 60 samples.

Results

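In 4 of 60 mice, striatal transcripts held less signal in their 5′ exons than in other mice. In values scaled per library, long transcripts held less signal as a whole and short ones held more. The 4 mice were those numbered 4, 5, 62 and 63 in the labels. They were chosen by the exon values of these same libraries as the animals with the strongest 3′ bias, and they were set against 39 other mice. A further 17 mice, numbers 26 and 41 to 56, had fewer reads and were kept out of this contrast. Because the exon values chose the 4 mice, their values against the 39 are given as a description, with no test.

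All mice were HS-CC animals, a heterogeneous stock founded from the inbred parents of the Collaborative Cross, from lines bred for their response to haloperidol, a drug that blocks dopamine D2 receptors. The striatum was dissected by hand and polyA RNA was sequenced in 1 library per mouse. The labels give sex and whether the animal had responded when tested for catalepsy (failure to move), and ages are not given in the sources used here. Mouse 4 was a male responder, mouse 5 a female non-responder, mouse 62 a male non-responder and mouse 63 a female responder, so each combination of label was held by 1 of them. The 39 other mice comprised 10 responders and 8 non-responders among the females and 10 responders and 11 non-responders among the males. The 4 mice have neighbouring numbers, 4 and 5 and 62 and 63, and the labels do not say what the numbers stand for.

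A messenger RNA carries its polyA tail at the 3′ end, and a polyA library is made from molecules caught by that tail. Where a molecule breaks before capture, the piece with the tail is kept and the 5′ piece is washed away, and the piece that is lost is larger in a long transcript than in a short one. Reads that crowd towards the last exon are therefore a common readout of how intact the captured RNA was. No measure of RNA integrity was used here, so its part in the values below was not tested.

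The reads recovered from the gene table did not set the 4 mice apart. Their totals were between 13488286 and 19167610 reads on the listed genes, inside the range of the 39 mice, which was 12051239 to 21872744 with a median of 16687628. The 17 mice left out had between 4913122 and 9507322. The defining genes of the striatum were present in the 4 mice. Ppp1r1b, the dopamine-regulated phosphatase inhibitor of medium spiny neurons, had deposited gene values of 27271, 40190, 36057 and 31899 in mice 4, 5, 62 and 63, and the 39 mice were between 13640 and 30367 with a median of 21623. Penk, the precursor of the enkephalin peptides, was at 29870, 40908, 28545 and 42536 in the same order, against 12311 to 30746 with a median of 20963. Both genes were above the median of the 39 mice in all 4 mice and overlapped their range. Drd1 was not analysed here. None of the lists of choroid plexus or blood markers had a gene in the table.

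The 3′ bias was expressed as an index, calculated as the median, across 5209 genes, of the slopes of log2 exon values from the first to the last exon row, relative to the mean of the mice. A value of 1 means that the last exon gained a log2 unit over the first. Mouse 63 had an index of 1.48, mouse 5 of 0.907, mouse 4 of 0.683 and mouse 62 of 0.477. In the 39 mice it ranged from -0.159 to 0.187, with a mean of 0.0022 and an SD of 0.0765. The last of the chosen mice was thus at 0.477 and the next mouse, number 16, at 0.187. Within the 4 mice the bias was graded, with mouse 63 far above the others.

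The exons along the gene showed where the signal was low. In the median gene, the exon rows before the middle of the gene held 18.1%, 16.2%, 20.3% and 11.4% of the exon signal in mice 4, 5, 62 and 63. In the 39 mice they held between 23.5% and 26.95%, with a median of 25.4%. The last exon row held 57.1%, 59.9%, 53.6% and 68.0% in mice 4, 5, 62 and 63, against 44.7% to 49.4% in the 39 mice. Neither share of the 4 mice overlapped the other mice. When each gene was divided into 10 positions, the median log2 share at the 5′ end was lower by 0.373 in mouse 62 at the least, and by 1.33 in mouse 63 at the most, than the mean of the 39. All 4 mice were below the range of the 39 over the first 8 positions and above it at the last. The crossing point was late, since at position 9 mouse 63 was still at -0.175 and mouse 62 at 0.0162.

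**Figure D1:**
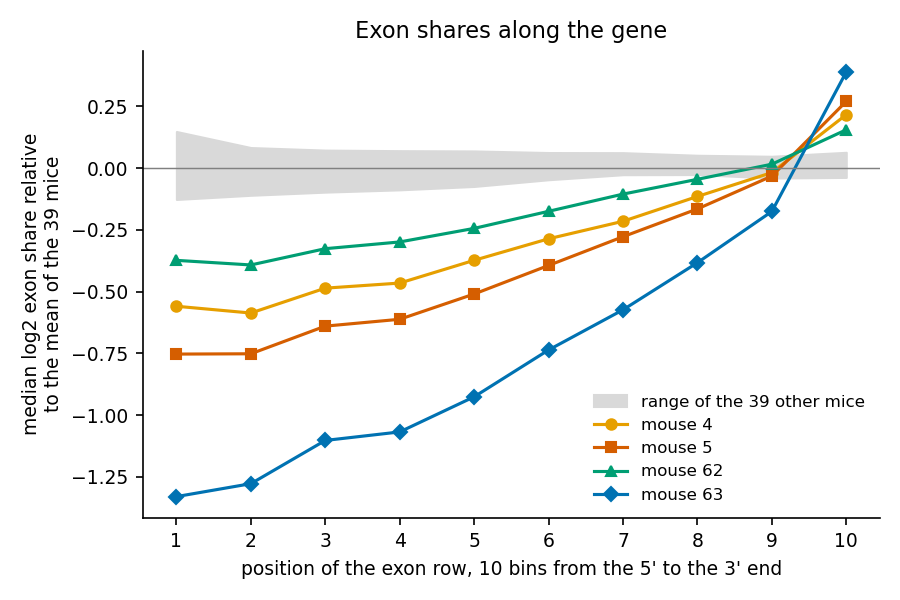
Exon shares along the gene, with the position of the exon row in 10 bins from the 5′ to the 3′ end on the x axis and the median log2 share relative to the mean of the 39 other mice on the y axis. Lines are mice 4, 5, 62 and 63 and the grey band is the range of the 39 mice. The lines run from -1.33 (mouse 63) and -0.373 (mouse 62) at the 5′ end to 0.390 and 0.156 at the 3′ end, and all 4 are outside the band at every position but the ninth.

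The tilt grew with the number of exons. The slope of all 4 mice was above that of all 39 mice for 1745 of the 5209 genes (33.5% of all genes with a slope) and below for 0 of them. Without mouse 62, the mildest of the 4, the remaining 3 mice were above all 39 for 2742 genes, a count that cannot fall when a mouse is left out. In genes with 5 to 9 exon rows the median slope exceeded that of the 39 mice by 0.71 and 421 of 2735 genes were above. In genes with at least 30 exon rows the excess was 2.01 and 143 of 147 were above. Among these many-exon genes the excess was 1.66, 2.05, 1.49 and 3.08 in mice 4, 5, 62 and 63. By transcript length the median excess rose from 0.57 in 439 genes of up to 2000 nt to 1.28 in 622 genes over 8000 nt. The bins of exon number and of length hold unlike numbers of genes, so the size of the 2 gradations cannot be compared.

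The steepest slopes among well expressed genes belonged to Pclo, Dync1h1, Spen, Srrm2 and Mycbp2, all of which encode very large proteins. Pclo (ENSMUSG00000061601, chr5:14514918-14863459 on the + strand of GRCm38) encodes piccolo, a scaffold of the presynaptic active zone. Its exon rows before the middle held 60.7%, 57.3%, 63.8% and 26.8% of its signal in mice 4, 5, 62 and 63, against 79.1% to 88.7% in the 39 mice. The second of its 20 exon rows had 23, 22, 20 and 0 normalised reads in mice 4, 5, 62 and 63, whereas the 39 mice had 146 to 490. The last exon row had 564, 506, 540 and 728, all within the 504 to 887 of the 39 mice. At its 3′ end Pclo thus stood at the level of the other mice, and upstream it stood below them.

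Dync1h1 (ENSMUSG00000018707, chr12:110601452-110666945, + strand), the heavy chain of cytoplasmic dynein, showed the same profile over 73 exon rows. The first row had 11, 14, 8 and 2 normalised reads in mice 4, 5, 62 and 63 and 42 to 109 in the 39 mice. The last row had 653, 695, 363 and 853 against 290 to 634, so that 3 of the 4 mice were above the range. The slope of Dync1h1 exceeded the mean of the 39 mice by 3.67 on the log2 scale. That of Srrm2, a large serine and arginine rich protein of the spliceosome, exceeded it by 3.51, with 5.19 in mouse 63. Mycbp2, a large ubiquitin ligase of axons, and Spen, a transcriptional repressor, were at 3.38 and 3.52. The smallest slopes by the same rule were those of Rbbp6, a ubiquitin ligase that binds the retinoblastoma protein, and Zfp827, a zinc finger protein, at -0.80 and -0.74, and for both the 4 mice overlapped the 39.

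Gene values were compared as log2(value + 1) over 8410 genes that averaged at least 10 in the 43 mice. A gene is called lower where all 4 mice were below all 39, and higher where all 4 were above. By this rule 945 genes were lower (11.2% of all genes tested) and 686 were higher (8.16%), together 19.4%. Alone against the 39, mouse 63 was below for 2318 genes (27.6%) and above for 2524 (30.01%). Mouse 5 was below for 1727 (20.5%) and above for 1588 (18.9%), and mouse 62 for 1597 (18.99%) and 1405 (16.7%). Mouse 4 was below for 1419 (16.9%) and above for 1136 (13.5%). Single mice among the 39 were also outside for many genes. Each of them, set against the other 38, was outside their range for 77 to 1265 genes, with a median of 305. Negative differences reached further than positive ones. The median difference over all genes was 0.00 on the log2 scale, 529 genes differed by -1 or less and 38 by 1 or more, and the extremes were -3.70 and 1.47. In the median gene the 4 mice, 9.30% of the animals, contributed 25.5% of the sum of squares over the 43 mice, and in 1464 genes they contributed more than 50%.

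Transcript length ordered these differences. In the shortest of 10 bins, with transcripts of up to 1347 nt, the median difference was 0.59, 270 of 831 genes were higher and 16 were lower. In the longest bin, over 7832 nt, the median was -0.69, 425 of 829 genes were lower and 4 were higher. The sign changed between the bin that ended at 3856 nt, the median length, and the next. This crossing point is relative to the scaling of the libraries. With the deposited upper quartile scaling the median difference over all genes was -0.00045, and with scaling by the library total it was 0.07. The longest bin minus the shortest was -1.04, -1.22, -1.14 and -1.73 in mice 4, 5, 62 and 63, and ranged from -0.54 to 0.47 in the 39 mice taken 1 at a time. Mouse 62, which had the smallest exon index of the 4, thus had a larger length contrast than mouse 4.

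**Figure D2:**
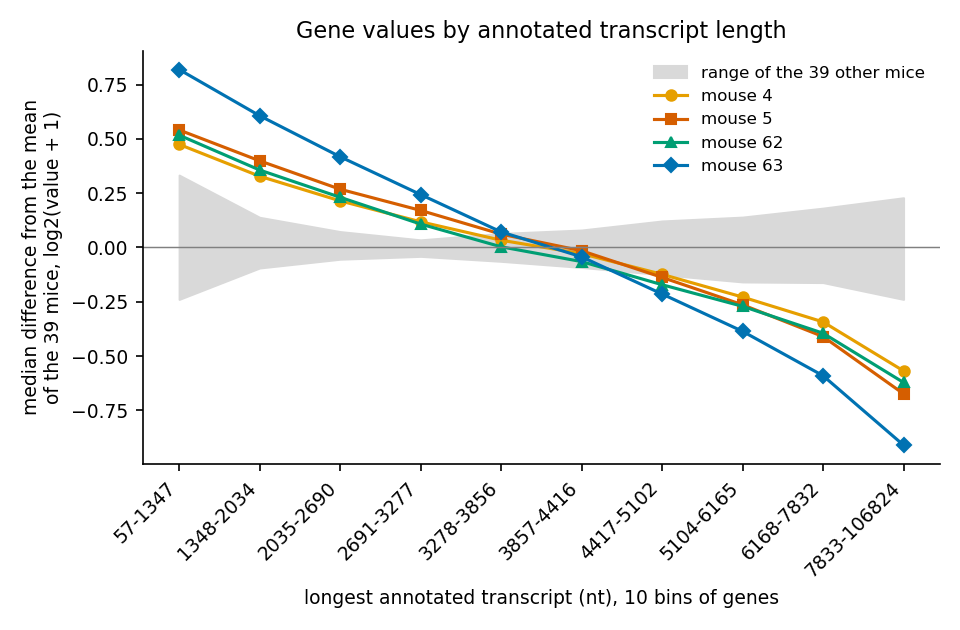
Gene values by annotated transcript length, with 10 bins of the longest GENCODE M21 transcript in nt on the x axis and the median difference from the mean of the 39 mice, in log2(value + 1), on the y axis. Lines are mice 4, 5, 62 and 63 and the grey band is the range of the 39 mice. All 4 lines fall from above the band at up to 1347 nt (0.475 to 0.820) to below it over 7832 nt (-0.569 to -0.910).

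Across genes, the difference had a Pearson correlation of -0.63 with log10 transcript length, -0.62 with log10 coding length and -0.32 with log10 of the number of exon rows (genes are not independent replicates, and no p is given). The lower genes had a median transcript of 7574 nt and 17 exon rows, the higher genes 1538 nt and 5 exon rows, and all genes 3856 nt and 11 exon rows. GC content was 46.8% in the lower, 53.5% in the higher and 49.2% in all genes (medians). Once the median of its length bin was taken from each gene, the correlation with GC was 0.01. The median 3′ UTR was 3482 nt in the lower genes and 500.5 nt in the higher genes. There were exceptions, since 82 lower genes were shorter than the median transcript and 38 higher genes were longer.

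A low total and a tilt along the exons did not always go together. Of the 682 lower genes with a slope, 356 (52.2%) also had the slope of all 4 mice above the 39, compared with 19 of 251 higher genes (7.57%) and 33.5% of all. These shares are not matched for exon number. The share above was 15.4% in genes with 5 to 9 exon rows kept and 97.3% with at least 30. The lower genes had a median of 17 exon rows and the higher genes 5. Conversely, 1370 of the 1745 tilted genes had gene values that overlapped the other mice, and in 569 the total differed by less than 0.2 although the exons were tilted. The Pearson correlation across genes between the difference and the slope was -0.31.

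Among genes averaging at least 100 whose values did not overlap between the groups, Grin2b and Grin2a had the most negative differences, and they had no tilt along their exons that set the 4 mice apart. Grin2b (ENSMUSG00000030209, chr6:135713233-136173511, − strand) encodes the NR2B subunit of the NMDA receptor. Its gene value was 80.7, 82.3, 93.6 and 35.7 in mice 4, 5, 62 and 63, and between 406 and 1487 in the 39 mice, a difference of -3.48 (SE 0.32). Grin2a (ENSMUSG00000059003, chr16:9567898-9995560, − strand), the NR2A subunit, was at 91.6, 79.5, 103 and 22.2 against 320 to 1083, a difference of -3.28 (SE 0.51). The mean of the 4 mice was under the median of the 39 in all 12 exon rows of Grin2b that were kept, with log2 ratios from -3.81 to -1.35 and -3.42 in the last row. That row had only 5, 6, 8 and 1 normalised reads in mice 4, 5, 62 and 63, and that of Grin2a 5, 1, 6 and 0. At such low values the slope could miss a tilt. The last exon row of Grin2b held 7.42% of its signal in the median of the 39 mice, and that of Grin2a 2.61%, whereas in the median gene it held 46.7%. GENCODE M21 gives these transcripts 3′ UTRs of 18865 and 9929 nt. Kcnh7, a potassium channel of the ether-a-go-go family, was of the same kind, with a 3′ UTR of 9532 nt and 5.21% of its signal in the last row. It differed by -2.94 (SE 0.38).

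**Figure D3:**
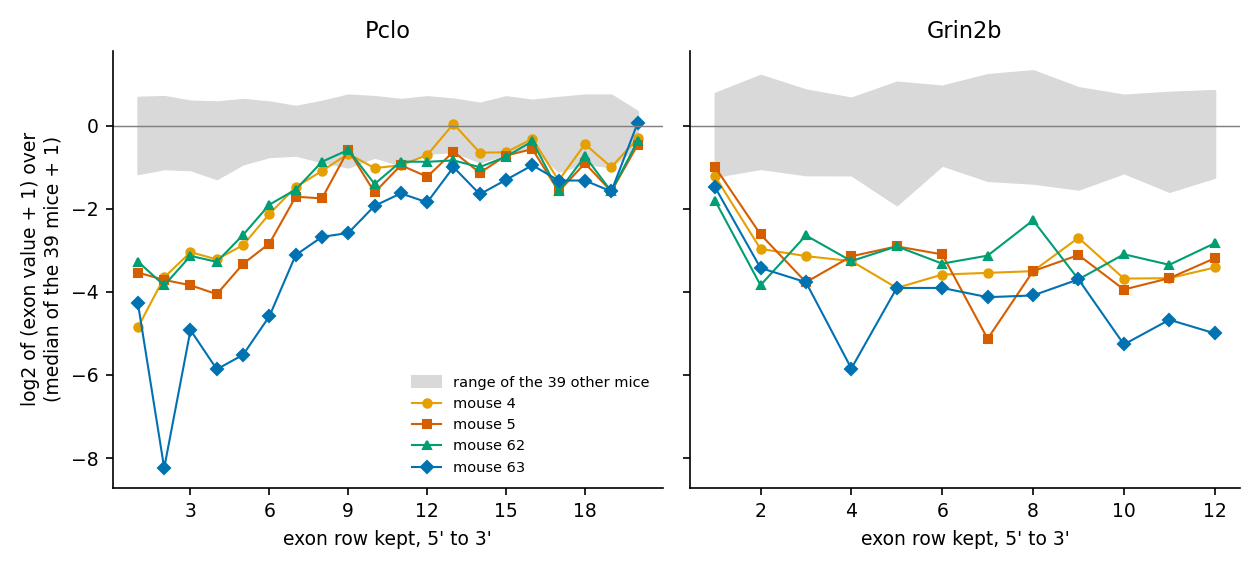
Exon rows of Pclo (left) and Grin2b (right) in order from the 5′ to the 3′ end on the x axis, and log2 of (exon value + 1) over (median of the 39 mice + 1) on the y axis. Lines are mice 4, 5, 62 and 63 and the grey band is the range of the 39 mice. In Pclo the 4 mice return to the band at the 3′ end, where their mean is at -0.26, and in Grin2b they remain below it, at -3.42 in the last row.

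The remaining genes with the smallest differences by the same rule had shorter and longer transcripts. Gucy1a2, a subunit of soluble guanylate cyclase, the receptor for nitric oxide, had values of 328, 184, 350 and 63.7 in mice 4, 5, 62 and 63 and 696 to 2807 in the 39 mice, a difference of -2.88 (SE 0.57). Its annotated transcript was only 3233 nt long with a 3′ UTR of 25 nt. Kcng3, a modifying subunit of potassium channels, was at 28.98, 23.1, 26.8 and 3.86 against 87.6 to 261. Igsf9b, an adhesion protein of inhibitory synapses, Dgkh, a diacylglycerol kinase, Ksr2, a scaffold of the Ras pathway, and the predicted gene Gm340 differed by -2.79, -2.79, -2.69 and -2.68. In these genes, Grin2b, Grin2a and Kcnh7 included, the groups did not overlap, by the rule that named them, and mouse 63 had the lowest value in each, although for Gm340 mouse 5 was next to it (16.6 and 16.4).

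Within the same limits, an average of at least 100 and no overlap, the 10 genes with the largest positive differences had short transcripts. Fxyd2, a regulator of the sodium pump, had values of 286, 241, 447 and 252 in mice 4, 5, 62 and 63 against 40.5 to 202 in the 39 mice, a difference of 1.39 (SE 0.22). Mrpl52, a protein of the mitochondrial ribosome, was at 207, 241, 228 and 290 against 73.2 to 160 (1.11, SE 0.11). Rps14 and Rplp1, proteins of the cytosolic ribosome, differed by 1.10 (SE 0.19) and 1.05 (SE 0.13), and Rplp1 was at 4625, 4623, 4937 and 6443 against 1739 to 3899. Pfdn5, a subunit of the chaperone prefoldin, differed by 1.07, Trf, the iron carrier transferrin made by oligodendrocytes, by 1.03, and Ndufb11, of respiratory complex I, by 1.02. The others were 1190005I06Rik (1.04), Gm24276, annotated as a miRNA gene (1.05), and the processed pseudogene Gm15427 (1.05). The counts of Gm15427, and those of Rps14 and Rplp1, are uncertain, because ribosomal protein genes share reads with near-identical copies. The annotated transcripts of the 10 genes were between 110 and 2571 nt.

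**Figure D4:**
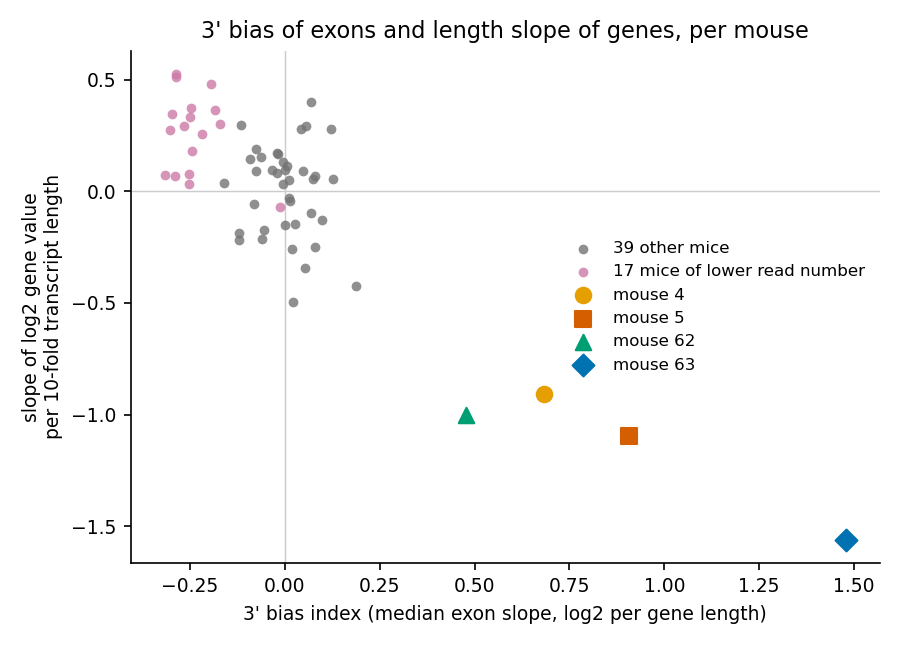
One point per mouse, with the 3′ bias index of the exons on the x axis (median slope in log2 units from the first to the last exon row) and the slope of log2 gene values per 10-fold transcript length on the y axis. The 4 mice lie at slopes from -0.907 to -1.56, and the 39 other mice at -0.496 to 0.399.

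Gene lists were read against these backgrounds of 11.2% lower and 8.16% higher genes. Lists of short nuclear-encoded genes of the energy and protein machinery held higher genes. Of 64 measured genes of the respiratory complexes I to IV and the ATP synthase, 37 were higher and 0 lower, with a median difference of 0.72 (0.53, 0.66, 0.64 and 0.95 in mice 4, 5, 62 and 63). Examples were Ndufb11 above and Uqcr11, a subunit of complex III, with 1584, 1914, 2005 and 2255 against 646 to 1335 in the 39 mice. The member with the largest difference, Ndufb2 of complex I (1.17), overlapped the other mice because mouse 5 was at 107. Of 22 cytosolic ribosomal proteins 8 were higher (median 0.75), of 63 mitochondrial ribosomal proteins 22 (median 0.49) and of 30 proteasome subunits 10 (median 0.45), and 0 members of these lists were lower. Psmb6, a catalytic subunit of the proteasome, was at 1351, 1436, 1175 and 1619 against 620 to 1099. After subtraction of the median of each gene's length bin, the respiratory chain stood at 0.16, the cytosolic ribosome at 0.25, the mitochondrial ribosome at 0.10 and the proteasome at 0.02.

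Lists of long genes held lower genes. Of 104 chromatin modifiers 49 were lower and 0 higher, with a median difference of -0.53. Srcap, the ATPase of a histone exchange complex, was at 186, 157, 239 and 58.9 in mice 4, 5, 62 and 63 against 506 to 932 (difference -2.29, SE 0.44), and Kdm7a, a histone demethylase, differed by -1.87. Of 29 large ubiquitin ligases and deubiquitinases 14 were lower (median -0.58), led by Usp9x at 2040, 1538, 2170 and 935 against 2845 to 6302. Of 59 motor and large cytoskeletal proteins 18 were lower (median -0.43), among them Map1b, which stabilises axonal microtubules, at 9246, 7901, 6926 and 6147 against 12494 to 30695. These 3 lists stood at -0.04, -0.03 and -0.01 after subtraction of the length bin.

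The neuronal lists held lower genes as well. Of 93 ion channels and glutamate receptors 31 were lower and 0 higher (median -0.51), of 107 axon guidance and adhesion genes 30 were lower (median -0.57), and of 41 genes of the synaptic vesicle and active zone 8 (median -0.44). Tenm1, a teneurin that joins synaptic partners, was at 216, 129, 250 and 65.7 against 349 to 1232, and Dcc, the netrin receptor, differed by -2.19. Sv2c, the vesicle protein of basal ganglia, was at 439, 461, 716 and 130 against 774 to 2546. These lists remained negative after subtraction of the length bin, at -0.14, -0.17 and -0.25. Whether such remainders, here or in the other lists, exceed the spread of the 39 mice was not computed. Before subtraction, the medians of single mice among the 39 reached down to -0.36, -0.37 and -0.50 in the same lists. For the vesicle list, mouse 4 at -0.25 and mouse 63 at -0.44, also before subtraction, were inside that range.

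In the remaining function lists, members lay on both sides or overlapped the other mice. Of 74 splicing factors 7 were lower and 4 higher (median 0.05, and -0.04 among genes averaging at least 500). Srrm4, the neuronal activator of microexons, was at 162, 119, 134 and 96.5 against 261 to 584, whereas Sf3b5, a small subunit of the spliceosome, was at 797, 882, 825 and 1179 against 337 to 680. Of 30 genes of the vacuolar ATPase and autophagy 6 were higher, among them Gabarap (0.69), and the autophagy scaffold Wdfy3, with a transcript of 14274 nt, was lower (-0.98, SE 0.09). Of 127 Zfp zinc finger genes 29 were lower and 7 higher (median -0.16, which was -0.28 among genes averaging at least 500 and -0.09 when scaled by the library total), from Zfp871 at -2.43 to Zfp524 at 0.70. Among 4 measured nuclear noncoding RNAs, Meg3 was lower (-1.23) and Pantr1 higher (1.01). Of 5 immediate early genes 0 were outside the range, and Nr4a2 differed by -0.86 (SE 0.52).

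Few markers of cell types were outside the range of the 39 mice. Of 20 markers of medium spiny neurons 1 was higher, Gpr6, an orphan receptor of the indirect pathway, and 0 were lower, with a median difference of 0.43 and 0.36 beyond length. The list median was 0.32, 0.52, 0.47 and 0.33 in mice 4, 5, 62 and 63. Single mice among the 39 ranged from -0.61 to 0.34, so mice 4 and 63 were inside that range. Gnal, the G protein of striatal dopamine and adenosine receptors, went the other way at -1.07 (SE 0.33) and overlapped the other mice. Of 13 oligodendrocyte markers 1 was higher (Trf, median of the list 0.42), of 17 astrocyte markers 2 (Apoe and Cldn10, median 0.16), and of 10 microglial markers 0 (median 0.70, with C1qb at 0.95, and 0.43 among genes averaging at least 500). Of 5 cortical neuron markers 1 was lower (Cux2, median -0.57), and of 6 interneuron markers and 4 endothelial and mural markers 0 were outside the range. The summed values of the microglial markers were 9567, 10208, 13024 and 12739 in mice 4, 5, 62 and 63 against 5839 to 12250 in the 39 mice. Those of the cortical markers were 8653, 6688, 5623 and 8197 against 5317 to 20402. In bulk tissue, fewer cells of a type and less RNA per cell cannot be told apart, and the part of cell composition in the gene differences was not tested.

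**Figure D5:**
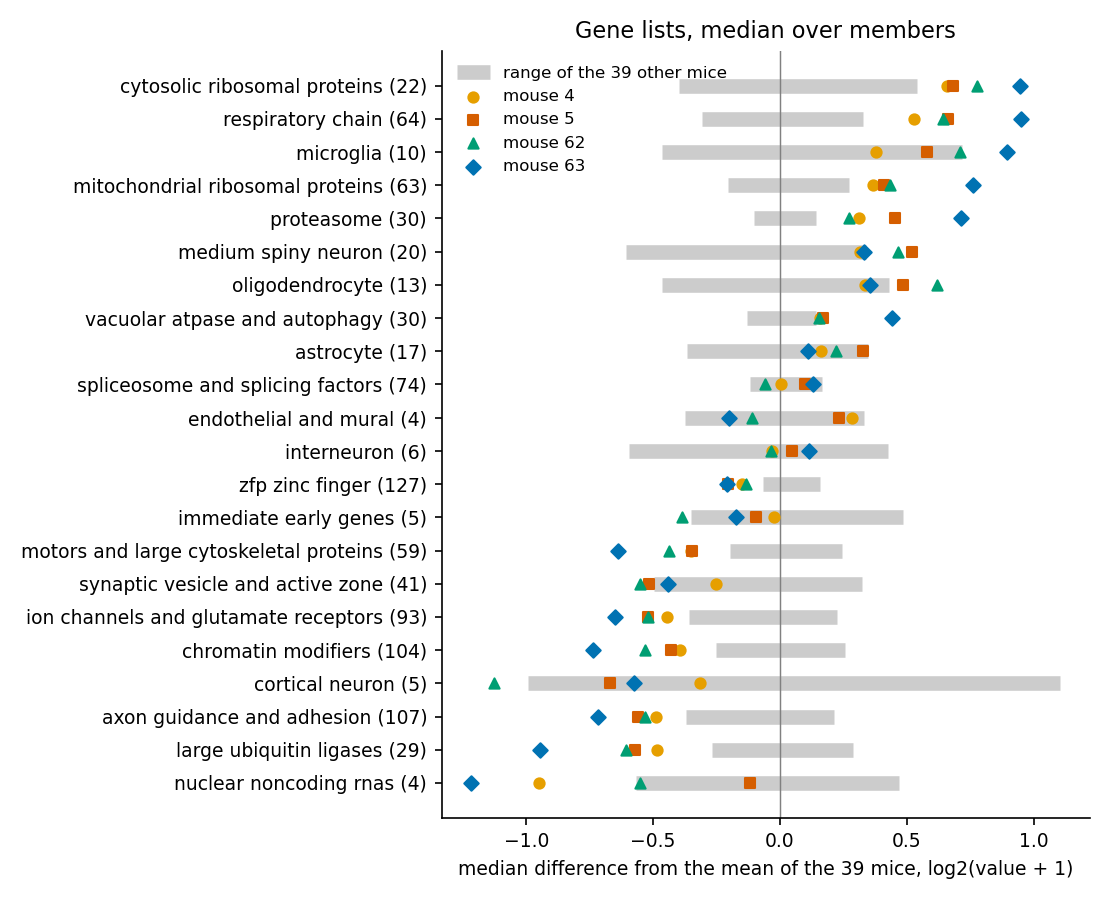
Median difference of gene lists from the mean of the 39 mice, in log2(value + 1), with the list and its number of measured genes on the y axis. Coloured points are mice 4, 5, 62 and 63 and grey bars are the range of the 39 mice taken 1 at a time. The respiratory chain stands at 0.53 to 0.95 and the large ubiquitin ligases at -0.49 to -0.95, both outside the bars.

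The mitochondrially encoded genes mt-Rnr1 and mt-Cytb were listed at 0 in the gene table and had exon rows only. The exon sum of mt-Rnr1, the small ribosomal RNA, was 238546, 287968, 289007 and 391541 in mice 4, 5, 62 and 63, against 99364 to 377596 in the 39 mice. That of mt-Cytb was 379615, 422050, 520036 and 345099 against 117433 to 439014. All 4 mice were above the medians of the 39, at 160834 and 261231, and 1 mouse for each gene was above the range.

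Whether milder degrees of the bias had the same counterpart in gene values was tested in the mice outside the chosen 4. The choice took the mice with the strongest exon-level bias, so the index of the remaining mice was cut at its top. For the relation to length alone, the index was computed from genes on odd-numbered chromosomes. The length slope, the change in log2 gene value per 10-fold transcript length, came from genes on even-numbered chromosomes and X. Within the 39 mice there was no relation that passed the test (Pearson's r = -0.11, permutation p = 0.490, adjusted p = 0.490, and Spearman's rho = -0.13, permutation p = 0.444, adjusted p = 0.888, 100000 resamples, two-sided). Without the mice farthest from the median index, numbers 16 and 22, r was 0.04. Within the 17 mice with fewer reads r was -0.23 (permutation p = 0.381, adjusted p = 0.490) and rho 0.02 (permutation p = 0.944, adjusted p = 0.944), and r was 0.24 without mice 26 and 54. No relation of the index to the number of reads passed the test in the 39 mice either (r = -0.05, permutation p = 0.759, adjusted p = 0.759, rho = -0.10, permutation p = 0.554, adjusted p = 0.554, and r = -0.08 without the same 2 mice, 16 and 22). Each relation was computed in the 39 and in the 17 mice, and p-values were adjusted over the pair. The 39 mice spanned 0.346 units of the index from all 5209 genes, less than the 1.00 that separated the mildest and the strongest of the 4.

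Gene by gene, limma with the trend option, with sex and response as covariates, called 0 of 8410 genes (0%) on the index within the 39 mice at an adjusted p of 0.05. The index in these fits came from all 5209 genes with a slope, so a gene's own exons could contribute to the index it was fitted on. An unadjusted p under 0.05 was given to 644 genes. The quasi-likelihood test of edgeR on recovered reads also called 0 genes, with 661 at an unadjusted p under 0.05. The smallest adjusted p in limma was 0.0786, for Crtc2, a coactivator of CREB, with a slope of 1.502 (SE 0.30) per unit of the index, and for Samd12, with a slope of -3.03 (SE 0.62). Neither passed the test. Crtc2 differed by 0.24 and Samd12 by -1.63 between the 4 mice and the 39, and for both the groups overlapped. Aup1 and Map4k2 were next in the positive direction and Pcdhb4 and Gpatch2l in the negative.

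Within the 17 mice with fewer reads, limma called 26 genes (0.309%), all of them lower at a higher index. The smallest adjusted p belonged to ENSMUSG00000045999 (-16.5 per unit, SE 1.81, adjusted p = 0.000233), which was higher in the 4 mice than in the 39 by 0.60 with overlap, followed by Gm24245, with an annotated transcript of 57 nt (-18.8, SE 2.59, adjusted p = 0.00315), which differed by -0.09. The others included Malat1, a nuclear noncoding RNA (-9.74 per unit, SE 1.55, adjusted p = 0.00683), Pou2f1, a transcription factor (-4.65, SE 0.69, adjusted p = 0.00493), and Ksr2 (-2.74, SE 0.58, adjusted p = 0.0471), genes chosen after their values were seen. Of the 26 genes, 24 had a negative difference between the 4 mice and the 39, and 11 were lower by the rule above, where of all 8410 genes 4207 had a negative difference and 11.2% were lower. This result rested on few mice. Without numbers 26 and 54, limma called 1 gene, in the positive direction, and edgeR called 2 genes with all 17 mice. Mouse 26 had an index of -0.01, and the lowest of the 17 was at -0.32.

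The index was compared between the labels, which had no part in the choice of the 4 mice. Over 60 mice the mean index was 0.0210 (SD 0.338) in 30 responders and -0.0359 (SD 0.236) in 30 non-responders (permutation p = 0.480, adjusted p = 0.812). It was 0.0030 (SD 0.370) in 28 females and -0.0165 (SD 0.204) in 32 males (permutation p = 0.812, adjusted p = 0.812). Within the 39 mice, responders were at 0.0260 (SD 0.0808, n = 20) and non-responders at -0.0228 (SD 0.0645, n = 19), a difference of 0.0488 that did not pass adjustment over the pair of labels (permutation p = 0.0459, adjusted p = 0.0917).

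The comparison of responders with non-responders was run with and without the 4 mice, with sex as a covariate. With all 43 mice limma called 3 genes (0.0357%), and with the 39 mice it called 10 (0.119%), among them the same 3. These were Ick, a kinase of cilia, which was higher in responders by 0.27 (SE 0.05, adjusted p = 0.00823) in the 39 mice, Map7, a microtubule binding protein, higher by 0.27 (SE 0.06, adjusted p = 0.0359), and the predicted gene Gm15624, with a difference of -0.82 (SE 0.17, adjusted p = 0.0359). The 7 genes called only without the 4 mice were Ankrd6, Rars2, Mzt2, Invs, Hey1, 4833420G17Rik and ENSMUSG00000087227, named after their values were seen. Invs, a protein of the primary cilium, had a difference of -0.45 (SE 0.10, adjusted p = 0.0359) in the 39 mice and -0.44 (SE 0.12, adjusted p = 0.204) in the 43. Its value was 57.9 in mouse 63 and 96.2 in mouse 5, below the 125 to 305 of the 39 mice. Rars2, a mitochondrial arginyl-tRNA synthetase, was at -0.31 (SE 0.07, adjusted p = 0.0359) and -0.27 (SE 0.07, adjusted p = 0.168). Whether the response effect itself differed between the sets of mice was not tested. The edgeR test called 3 and 7 genes.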

How the data were processed

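PolyA RNA-seq of striatum was analysed in 60 mice, 1 library each. The authors used Bowtie 0.12.7 (submitters' processing notes) to align the reads to NCBI m37 and counted them on Ensembl 59 gene models. Values of the deposited gene table are a signal, read counts multiplied by an edgeR upper quartile factor. Values of the deposited exon table are a score, the same kind of count per exon rounded to whole numbers. Whole reads were recovered from the step of the gene table, and 100% of values came out whole within 0.001 reads.

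The 4 mice, the comparison and the gene lists were chosen with earlier results of these data known. The table had 9066 genes, of which 8858 (97.7%) were found in GENCODE M21 (GRCm38), which gave length, 3′ UTR and position. The paper kept the same number of genes after it dropped those with low counts or with only weakly connected exons. Shares of all genes given here are shares of this selected set. Because this build differs from that of the files, exon starts of the files served only to order the exon rows within a gene. The strand came from GENCODE. The library kit did not mark strand, so overlapping genes cannot be told apart. Exon slopes used rows averaging at least 10 and genes with at least 5 such rows. An SE combines the spread of the 4 and of the 39 mice.

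Named genes were, among genes averaging at least 100 outside the range of the 39 mice, the 10 largest and 10 smallest differences, and the 3 of each kind with at least 5 exon rows. Added to these were the member of each list with the largest absolute difference, the 3 genes of smallest adjusted p in each direction of the index fits, the 5 steepest and 2 least steep exon slopes among genes averaging at least 1000 with 10 exon rows, and Drd1, Drd2, Ppp1r1b and Penk. Other genes were named after their values were seen, and 1 gene that the rule names is not reported here.

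limma 3.58.1 and edgeR 4.0.16 were run in R 4.3.3, with Benjamini-Hochberg adjustment over all genes, and permutation tests with Python 3.11.15 and scipy 1.17.1. In simulated data with 200 changed genes and 8410 in all, limma recovered 100% for the index in 39 mice (14 false calls), 98.5% in 17 mice (14) and 99.5% for response in 43 mice (11). Every planted change had the same size, set by the SD of the index or as a fixed step between labels. Genes were independent and shared a single setting for their scatter. Smaller changes were not simulated, so these rates do not show that the fits would have found them. The p-values measure the spread between mice. Alternatives covered scaling, pseudocount, filters, sample sets, length measure, covariates and each of the 4 mice left out.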

Additional observations from a re-analysis of the deposited data

Results flagged for a closer look

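Of 133 values examined in the 4 mice, 11 had 1 mouse far from the other 3, with a gap to the nearest other beyond Dixon's 95% critical share of the whole range. Chance flags about 1 in 20 groups of 4. In 8 of the 11 the mouse that stood apart was number 63, which has the highest 3′ bias index. Differences are from the mean of the 39 mice on the log2(value + 1) scale, and no cause was tested.

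The gene difference of mouse 63 was -4.40 for Grin2b (others -3.25 to -3.04), -4.92 for Kcng3 (others -2.60 to -2.29), which rests on a value of 3.86, and -2.09 for Srrm2 (others -1.04 to -0.90). Its median difference was 0.76 for the mitochondrial ribosomal proteins (others 0.37 to 0.43) and 0.44 for the vacuolar ATPase and autophagy list (others 0.15 to 0.17). Its exon slope exceeded the mean of the 39 mice by 3.26 for Wdfy3 (others 1.88 to 2.08), by 1.09 for Itm2a (others 0.26 to 0.40) and by 0.99 for Aup1 (others 0.31 to 0.33).

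Mouse 62 stood apart for Map7 at -0.45 (others 0.06 to 0.11), mouse 5 for Map4k2 at 0.26 (others -0.22 to -0.16), and mouse 4 for the exon slope of Invs at 1.11 (others 0.20 to 0.29).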

How the results depend on the processing

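The direction of the length contrast and of the exon slope was the same under every alternative run. The longest minus the shortest bin was -1.28, and -0.83 when genes were binned by exon rows. Leaving out 1 of the 4 mice gave -1.36 (without mouse 4) to -1.14 (without mouse 63) and a median exon slope of 0.68 to 1.01. It also gave 958 to 1183 lower genes, 698 to 932 higher genes and 1755 to 2742 tilted genes. By the rule of no overlap, these counts cannot fall when a mouse is left out. Among genes averaging at least 500 there were 412 higher genes, since fewer genes were tested. The share of tilted genes was 55.96% with exon rows averaging at least 50 and 53.5% with at least 10 exon rows. Scaling by the library total moved the median of all genes to 0.07 and gave 861 lower and 822 higher genes. Of 645 values of named genes under alternatives 641 moved by less than 1 SD of the 4 mice, as did 215 of 220 list medians, the others being those of the Zfp genes, the splicing factors, the microglial and the interneuron markers (0.02, and 0.10 at an average of at least 500).

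Genes called on the index numbered 2 in the 39 mice with medians of ratios. In the 17 mice they numbered 2 with edgeR, 226 with no filter, 3 at an average of at least 500, 52 with no covariates, 15 with the library total as a covariate and 1 without mice 26 and 54. The correlation of length slope and index turned to 0.0351 (39 mice) and 0.242 (17 mice) without the farthest mice. The index of females minus males was 0.0195 in 60 mice and -0.0195 in 39, and that of responders minus non-responders was 0.0488 in the 39 mice, with an unadjusted p of 0.0459. Genes called for response numbered 9 in 60 mice. Among genes averaging at least 500 they numbered 1 with the 4 mice and 0 without them by limma, with 382 at an unadjusted p under 0.05. The causes were not tested.

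Positions along exons in bases could not be computed, since exon lengths were not used here. No paired analysis was possible because each replicate number is that of 1 mouse. Depth limits low genes such as Kcng3, at 3.86 in mouse 63, and the exon slopes of Grin2b and Grin2a.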
